A study of Danio rerio x Danio aesculapii and Danio rerio x Danio albolineatus and Danio rerio x Danio kyathit with 48 samples.

Results

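The genes fhl2a and fhl2b are the zebrafish counterparts of mammalian FHL2, and they are described here by allele and by kind of library in the skin of Danio hybrids. They are 2 of the 19629 genes in the deposited tables, and 4 other genes of the FHL family are in those tables too. Both were chosen by their summed values, which stood far higher in iridophore-enriched libraries than in unenriched skin, averaged over the hybrids. That difference in level is therefore given below as a description with no test. The allele ratios and the differences among hybrids were not the stated ground of the choice. The genes and tests were still chosen with earlier results of these data known, so their p-values are not independent of those results.

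LIM domains are zinc-binding modules through which proteins hold on to other proteins. FHL2 is built from such domains and little else, and in mammals it is known as a scaffold and co-regulator that meets transcription factors, β-catenin and integrins, with high levels in the heart. Iridophores are the reflective pigment cells of fish skin, which hold stacks of guanine crystals. Melanophores make black melanin, and xanthophores hold yellow to orange pteridines and carotenoids. In a hybrid, both parental alleles of a gene sit in the same nucleus, so a difference between the alleles is measured within a library, in the same cells.

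The hybrids had D. rerio (zebrafish) mothers and a father of 1 of 4 other species, D. albolineatus, D. kyathit, D. nigrofasciatus and D. aesculapii, and each hybrid is called here by its father. Iridophore-enriched cells were sorted from adult skin by pnp4a:mem-mCherry, melanophore-enriched cells by tyrp1b:mem-mCherry and xanthophore-enriched cells by aox5:mem-EGFP, membrane-bound reporters driven by genes of those cells. Unenriched whole skin served as the control. All groups are hybrids with a D. rerio mother, the reciprocal cross and pure species were not analysed here, and a sort on a reporter enriches cells without making them pure. Each of the 16 groups has 3 libraries, numbered 3, 4 and 5, which makes 48 libraries, and the labels call the number a batch.

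Per library, the values of both alleles summed to between 5173935 and 12500648. These are size-factor-scaled values, so the read depth behind them is not visible, and an effective number of molecules was estimated from the scatter of allele shares between replicates. It ran from 36368 to 982365 per library, and its median was 196622.5 for iridophore-enriched libraries, 94556 for melanophore-enriched, 92749 for xanthophore-enriched and 507320.5 for unenriched ones. Each sorted kind had the highest median sum of its own markers, but the ranges overlapped for melanophores and xanthophores. Over 9 melanophore markers the sum was 13876 to 216966 in melanophore-enriched libraries, and up to 17219 in iridophore-enriched, 15235 in xanthophore-enriched and 14783 in unenriched ones. In iridophore-enriched libraries the most abundant of these markers was mc1r. Over 9 xanthophore markers it was 11367 to 83404 in xanthophore-enriched libraries, and up to 38829 in melanophore-enriched ones. The sum over 11 iridophore markers was 126663 to 749878 in iridophore-enriched libraries and 1944 to 68742 in unenriched skin. Of the unenriched libraries, kyathit replicate 5 (68742) and nigrofasciatus replicate 3 (28050) had the highest iridophore marker sums, and levels of fhl2a and fhl2b set against unenriched skin are given with and without them. They also had the fewest estimated molecules of the unenriched libraries, 74907 and 105830, against 200004 or more in the others. Both were kept in the allele ratios of skin. The same libraries had the highest unenriched values of fhl2a (7337 and 4178) and fhl2b (678 and 415). Leaving them out can therefore only raise the mean differences from skin and the counts above it, so the direction of that change is no result.

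Both genes were at their highest in iridophore-enriched libraries. The summed value of fhl2a was lowest at 21657, median 37742 and highest at 79511 in the 12 iridophore-enriched libraries, against 281, 580 and 7337 in the 12 unenriched libraries. Without the unenriched libraries with high pigment cell genes, the unenriched values of fhl2a had a median of 524 and a maximum of 1768 (n = 10). No other library of any kind reached the lowest iridophore-enriched value of fhl2a, the next highest being 10017 in a melanophore-enriched library. The log2 difference from unenriched skin averaged 5.55 ± 0.87 over hybrids (SD, n = 4), between 4.38 in kyathit and 6.47 in albolineatus. Without those 2 unenriched libraries it averaged 6.11 ± 0.57, between 5.63 in aesculapii and kyathit and 6.72 in nigrofasciatus. In bulk libraries, more cells of a type and more RNA per cell cannot be told apart.

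For fhl2b, the summed value was lowest at 642, median 3623.5 and highest at 14743 in iridophore-enriched libraries, against 5, 49 and 678 in unenriched skin (median 35.5 and maximum 131 without the same libraries, n = 10). Here the kinds overlapped, since a melanophore-enriched library reached 1498. The log2 difference from unenriched skin averaged 5.25 ± 1.26 (SD, n = 4 hybrids), lowest in kyathit at 3.55 and highest in albolineatus at 6.57. Without the 2 unenriched libraries it averaged 5.86 ± 0.82, from 4.99 in kyathit to 6.57 in albolineatus. All 12 iridophore-enriched libraries lay above the mean of their own hybrid's skin for both genes, with and without the 2 unenriched libraries.

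**Figure D1:**
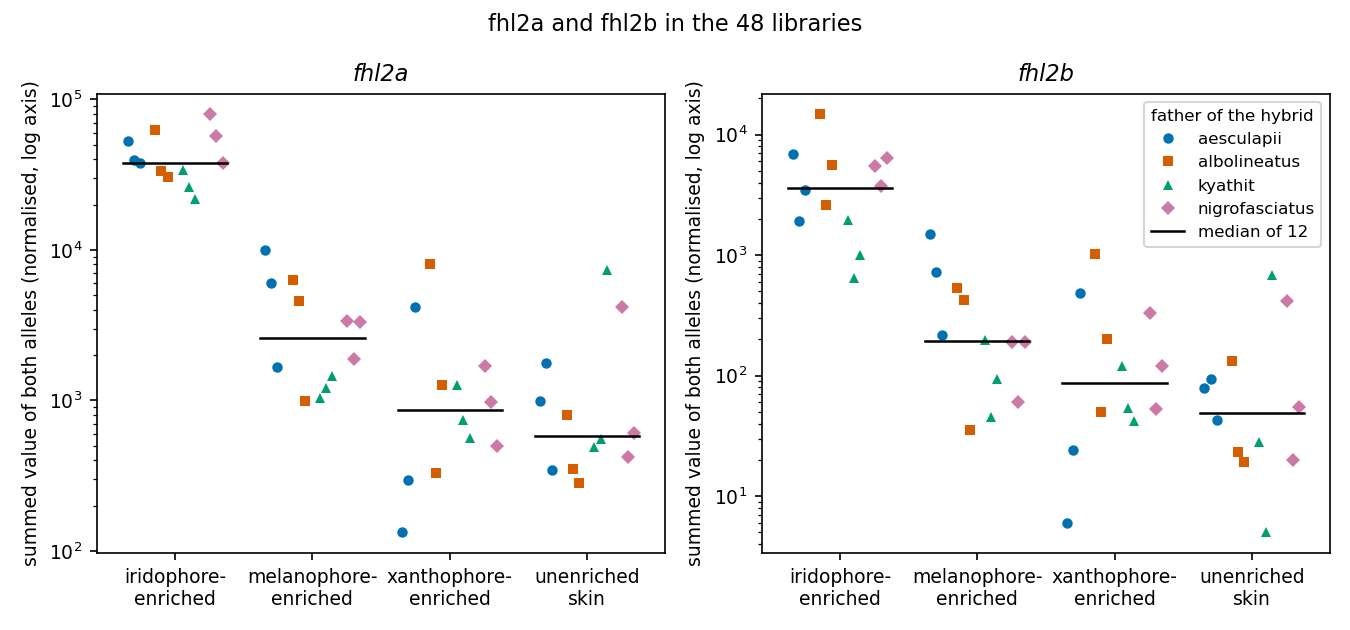
Summed value of both alleles of fhl2a (left) and fhl2b (right) on a log axis, for each of the 48 libraries by kind, coloured by the father of the hybrid, with the median of 12 libraries as a line. Every iridophore-enriched library of fhl2a lies at 21657 or above, and no other library exceeds 10017; for fhl2b the lowest iridophore-enriched libraries are kyathit ones at 642 and 1004.

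In the other sorted cells the genes were lower and spread widely. In melanophore-enriched libraries the summed value of fhl2a was 996 to 10017 (median 2608) and that of fhl2b was 35 to 1498 (median 193). Of these 12 libraries, 9 for fhl2a and 7 for fhl2b lay above the mean of their own hybrid's skin, and 12 and 11 did so without the 2 unenriched libraries. The mean log2 difference from unenriched skin was 1.64 ± 1.27 for fhl2a and 1.39 ± 1.22 for fhl2b, and 2.20 ± 0.69 and 1.998 ± 0.60 without those libraries (SD, n = 4 hybrids). In xanthophore-enriched libraries fhl2a was 133 to 8043 (median 858.5) and fhl2b 6 to 1018 (median 86.5), with 3 and 4 of 12 libraries above their hybrid's skin mean, and 8 and 9 of 12 without the 2 unenriched libraries. Neighbours in the order melanophore-enriched, xanthophore-enriched, unenriched overlapped for both genes. The mean log2 difference of xanthophore-enriched from unenriched libraries was 0.11 ± 1.13 for fhl2a and 0.56 ± 0.998 for fhl2b (SD, n = 4 hybrids). Without the 2 unenriched libraries it was 0.67 ± 0.96 for fhl2a, still smaller than its spread, and 1.17 ± 0.90 for fhl2b, larger than its spread.

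The iridophore markers varied with them. Iridophore marker sums were 12868 to 86619 in melanophore-enriched and 1609 to 75961 in xanthophore-enriched libraries. All 11 markers had a value above 0 in some library of every kind. Set against this sum, fhl2a came to 6.0 to 17.1% in iridophore-enriched libraries (median 12.6%), 5.37 to 13.0% for melanophore-enriched ones (median 10.2%), 7.42 to 16.2% for xanthophore-enriched ones (median 10.04%) and 10.3 to 16.8% for unenriched skin (median 12.7%). The summed value of fhl2a itself ran from 133 to 79511 over the same libraries, and its proportion to the markers overlapped between all kinds. The marker sum rests mostly on lypc, apoda.1, defbl1 and akap12a, with iridophore-enriched means of 115100, 80680, 70450 and 68400. The next marker, gpnmb, had 19800. Those leading markers are also among the genes most like fhl2a or fhl2b in these libraries (below), so a steady proportion is no separate result. The part of iridophore RNA in the melanophore- and xanthophore-enriched values was not tested.

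Proportions of fhl2b to the same marker sum were looser. They ran from 0.316 to 3.24% in iridophore-enriched libraries (median 0.911%), 0.221 to 1.73% for melanophore-enriched ones (median 0.732%), 0.373 to 2.32% for xanthophore-enriched ones (median 1.03%) and 0.104 to 2.14% for unenriched skin (median 0.982%). Most fhl2b values outside iridophore-enriched libraries rest on few molecules, with an estimated median of 3.13 per melanophore-enriched, 1.37 per xanthophore-enriched and 4.00 per unenriched library, against 71.1 per iridophore-enriched library.

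**Figure D2:**
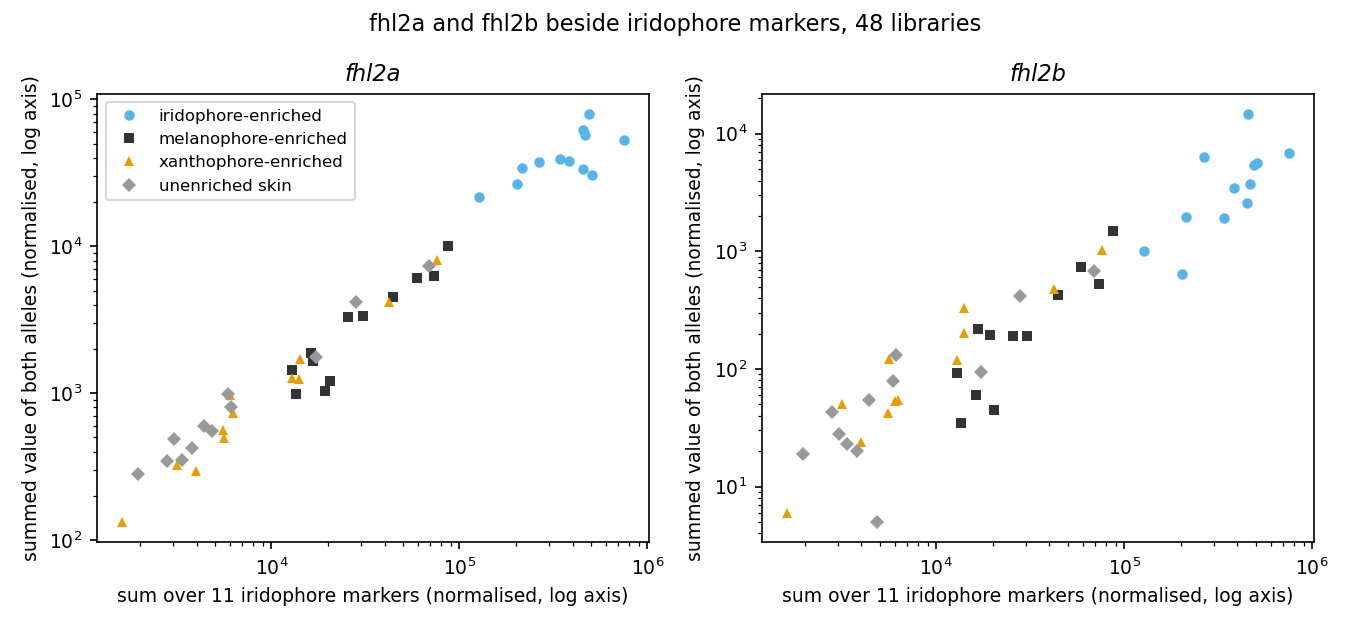
Summed value of fhl2a (left) and fhl2b (right) against the summed value of 11 iridophore markers, both on log axes, for the 48 libraries by kind. The points of all 4 kinds lie along 1 band for fhl2a, and the 12 iridophore-enriched libraries sit at its upper end, with marker sums from 126663 to 749878. The marker sum rests mostly on lypc, apoda.1, defbl1 and akap12a, which are among the genes most like fhl2a or fhl2b.

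The genes with the pattern most like fhl2a over the 48 libraries, by Pearson correlation of log2 values among 4859 genes, were si:dkey-197i20.6 (0.986), apoda.1 (0.985), akap12a (0.984), zgc:101840 (0.984) and lypc (0.983). For fhl2b they were zgc:101840 (0.962), defbl1 (0.957), fhl2a itself (0.957), apoda.1 (0.953) and akap12a (0.952). The points share the contrast between kinds of library and the scaling, and apoda.1, akap12a, lypc and defbl1 are among the 11 markers above. From the side of fhl2a, fhl2b ranked in place 15.

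Within iridophore-enriched libraries alone, the paralogs were correlated by Pearson's r in a test without batches, while Spearman's rho did not pass after adjustment. Over the 12 libraries, the log2 summed values of fhl2a and fhl2b had Pearson's r = 0.719 (permutation p = 0.00869, adjusted p = 0.0348 over the 4 correlations of this kind) and Spearman's rho = 0.608 (permutation p = 0.0405, adjusted 0.081). Without the 2 libraries farthest from the median of fhl2a, r was 0.705. With each hybrid's mean removed, r was 0.558 (permutation p = 0.0619, adjusted 0.0825) and rho 0.448 (permutation p = 0.147), and r fell to 0.392 without the 2 farthest libraries. The relation within hybrids did not pass. Iridophore marker sums ran from 126663 to 749878 over these libraries. In every hybrid, fhl2a fell as the replicate number rose, and fhl2b was lowest in replicate 4. Batches were not taken into account in these permutations, so a relation apart from the batches was not tested. The parts of the hybrids, of the batches and of the markers in the correlation were not tested.

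Among hybrids, fhl2b differed in level in iridophore-enriched libraries and fhl2a did not pass the test. Summed values of fhl2b in replicates 3, 4 and 5 were 6880, 1914 and 3486 in aesculapii, 14743, 2597 and 5590 in albolineatus, 1956, 642 and 1004 in kyathit, and 5450, 3761 and 6392 in nigrofasciatus. Kyathit was the lowest hybrid in each of the 3 batches. Its iridophore marker sums were the lowest as well, 126663 to 214287, against 265660 to 749878 in the other hybrids. As a proportion of that sum fhl2b was 0.316 to 0.913% in kyathit, 0.561 to 0.917% in aesculapii, 0.574 to 3.24% in albolineatus and 0.807 to 2.41% in nigrofasciatus. The part of the markers in this difference was not tested. limma's F test over hybrids gave F = 5.41 and adjusted p = 0.0368 for fhl2b, in a comparison where 11.8% of 5942 genes passed. The result changed with single batches: without replicate 4 or replicate 5 the adjusted p was 0.26 and 0.775.

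For fhl2a the same test gave F = 0.85 and adjusted p = 0.682. Its summed values in replicates 3, 4 and 5 were 53143, 39366 and 37916 in aesculapii, 62167, 33566 and 30454 in albolineatus, 34044, 26360 and 21657 in kyathit, and 79511, 57011 and 37568 in nigrofasciatus. Kyathit had the lowest summed value in every batch here too. Against the iridophore marker sum, fhl2a came to 13.0 to 17.1% in kyathit and 12.2 to 16.2% in nigrofasciatus. It came to 7.09 to 11.5% in aesculapii and 6.0 to 13.7% in albolineatus, so kyathit was not the lowest by this measure. The part of the markers was not tested. Reads can be given to an allele only where the parents differ in sequence, so a difference in level among hybrids cannot be told apart from a difference in the number of such reads between fathers. The log2 of fhl2a over fhl2b within a library, in which depth cancels, averaged 3.58 ± 0.71 in aesculapii, 2.73 ± 0.84 in albolineatus, 4.61 ± 0.63 in kyathit and 3.44 ± 0.77 in nigrofasciatus (SD, n = 3 each). In each of replicates 3, 4 and 5 it was highest in kyathit (4.108, 5.316 and 4.404) and lowest in albolineatus (2.075, 3.682 and 2.442). It did not pass a test over hybrids (F = 3.25, permutation p = 0.0844). The permutations took no account of the batches, so a difference within batches was not tested. Only depth cancels in this balance. The number of reads that can be given to an allele may differ between fathers for each gene, and its part was not tested.

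The allele ratios set the paralogs apart most clearly in albolineatus. In all 3 of its iridophore-enriched libraries, the D. rerio allele had the higher value for fhl2a and the paternal allele for fhl2b. The values of each allele were scaled by their own size factor, so shares and ratios are relative to the other genes of a library. For fhl2a the paternal allele had values of 20348, 11084 and 8623 in replicates 3, 4 and 5, and the D. rerio allele 41819, 22482 and 21831. That is a paternal share of 32.7, 33.0 and 28.3%. Paternal over D. rerio, the log2 ratio was -1.20 ± 0.14 (SE), a 2.30-fold lower paternal value, with limma adjusted p = 9.98e-06, in a group where 12.2% of 4690 genes had a paternal allele called lower.

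For fhl2b in the same libraries, the paternal allele had 13135, 1522 and 4728, and the D. rerio allele 1608, 1075 and 862. The paternal share was 89.1, 58.6 and 84.6%. The log2 ratio was 2.33 ± 0.31 (SE), a 5.03-fold higher paternal value (adjusted p = 0.00017, limma), where 9.34% of genes had a paternal allele called higher and 97 of 4690 had a larger ratio. Both albolineatus calls held under all 9 alternative settings. Replicate 4 had a smaller ratio than the other libraries, and the difference between libraries lay mainly in the paternal allele, whose highest value was 8.63 times its lowest, against 1.86 times for the D. rerio allele.

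In kyathit the order was another one. The paternal allele of fhl2b had values of 442, 175 and 278 in iridophore-enriched libraries, and the D. rerio allele 1514, 467 and 726, which is 22.6, 27.3 and 27.7% paternal. The log2 ratio of -1.54 ± 0.23 (SE) passed the test (adjusted p = 0.00033, limma), in a group with 12.3% of 8044 genes called lower. It did not pass without precision weights (adjusted p = 0.0682). For fhl2a the paternal share was 39.2, 51.4 and 50.5%, and the log2 ratio of -0.15 ± 0.12 did not pass (adjusted p = 0.417). Its 95% interval ran from -0.40 to 0.11, and without replicate 3 the ratio was 0.06.

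In nigrofasciatus the paternal allele had the higher value for both genes in every iridophore-enriched library, but the ratio of fhl2a did not pass. For fhl2b the paternal allele had 3536, 2407 and 4637 and the D. rerio allele 1914, 1354 and 1755, a paternal share of 64.9, 64.0 and 72.5%. The log2 ratio was 0.94 ± 0.22 (SE, adjusted p = 0.0155, limma), where 9.64% of 5175 genes were called higher. With the replicate number as a block the ratio was 0.86 and the adjusted p = 0.0556, so the call did not hold with the batches taken into account. It was lost also without precision weights (adjusted p = 0.187) and without replicate 4 (adjusted p = 0.0569) or 5 (adjusted p = 0.13). For fhl2a the paternal share was 62.5, 53.9 and 54.7% and the log2 ratio 0.29 ± 0.14 (adjusted p = 0.17), with a 95% interval from -0.02 to 0.59. Without replicate 3 it was 0.16. The median gene of these libraries leaned to the paternal allele by a log2 of 0.23, 0.09 and 0.08. The ratios have this removed and the shares do not.

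In aesculapii iridophore-enriched libraries the D. rerio allele was the higher one for fhl2a. The paternal allele had 22317, 14750 and 17831 and the D. rerio allele 30826, 24616 and 20085, a paternal share of 42.0, 37.5 and 47.0%. The log2 ratio of -0.46 ± 0.13 (SE) passed the test (adjusted p = 0.0233, limma), where 9.03% of 3279 genes were called lower. It did not pass with the replicate block (-0.44, adjusted p = 0.0927), without precision weights (adjusted p = 0.474), or without replicate 3 (adjusted p = 0.076) or 4 (adjusted p = 0.195).

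For fhl2b in aesculapii iridophore-enriched libraries the batches went apart. The paternal share was 57.1% in replicate 3, and 20.9 and 23.1% in replicates 4 and 5. The paternal allele had 3931, 400 and 806 there and the D. rerio allele 2949, 1514 and 2680. The paternal values had a highest 9.83 times the lowest, against 1.95 times for the D. rerio allele. The log2 ratio over all 3 libraries was -1.02 ± 0.38 (SE) and did not pass (adjusted p = 0.0775, limma). Without replicate 3 it was -1.76 (limma adjusted p = 0.000688), without replicate 4 -0.46 (adjusted p = 0.598) and without replicate 5 -0.29 (adjusted p = 0.7135). Replicate 3 had 48783 estimated molecules in all, the fewest of the iridophore-enriched libraries. For fhl2b the estimates were 44.1, 66.9 and 49.4 molecules in replicates 3, 4 and 5.

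**Figure D3:**
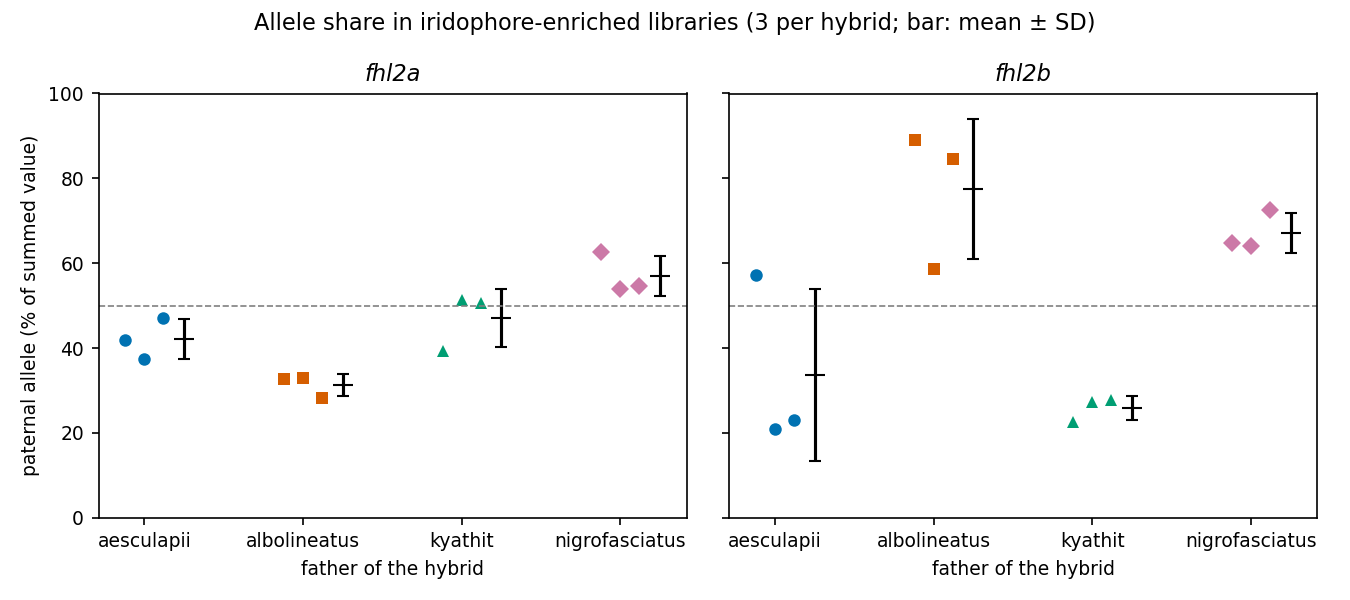
Paternal share of the summed value of fhl2a (left) and fhl2b (right) in each iridophore-enriched library by the father of the hybrid, in percent, with the mean ± SD of 3 libraries beside the points. The dashed line marks equal scaled values of the alleles. In albolineatus the shares of fhl2a (28.3 to 33.0%) lie below the line and those of fhl2b (58.6 to 89.1%) above it; in kyathit fhl2b lies between 22.6 and 27.7%.

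**Figure D4:**
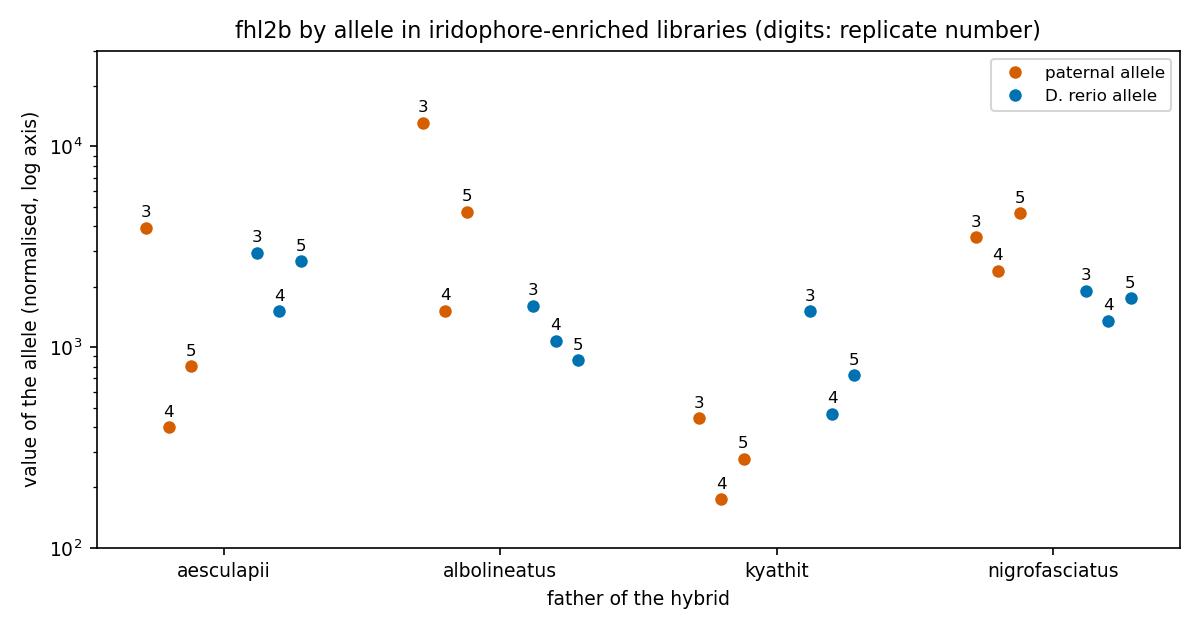
Value of the paternal (left of each pair) and D. rerio allele (right) of fhl2b in each iridophore-enriched library, on a log axis, by the father of the hybrid, with the replicate number at each point. Paternal values run from 175 to 442 in kyathit and from 1522 to 13135 in albolineatus, and D. rerio values from 467 to 1514 in kyathit and from 862 to 2949 in the other hybrids.

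The ratios differed among hybrids for both genes. limma's F test over the 4 hybrids in iridophore-enriched libraries gave F = 19.9 for fhl2b (adjusted p = 0.000203) and F = 17.1 for fhl2a (adjusted p = 0.000444). In that comparison 28.0% of 2722 genes passed. Both calls held under all 9 alternative settings.

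Within a library, the log2 ratio of fhl2b minus that of fhl2a compares the paralogs in the same cells. It was 0.87, -1.14 and -1.52 in aesculapii, 4.06, 1.51 and 3.77 in albolineatus, -1.13, -1.46 and -1.39 in kyathit, and 0.13, 0.60 and 1.12 in nigrofasciatus (replicates 3, 4 and 5). The albolineatus libraries were all above every other library, and the kyathit libraries were all below 0. The difference varied among hybrids (F = 11.8, permutation p = 0.00254, adjusted p = 0.00508 over this test and that of the level balance), in a test added after the values were seen. With 2 libraries a hybrid it gave a permutation p = 0.0286 without replicate 3 and 0.0667 without replicate 4 or 5.

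The other kinds of library were read for fhl2a, which had enough molecules in most of them. In albolineatus the D. rerio allele was higher in every kind. The paternal share was 24.1, 22.3 and 17.7% in melanophore-enriched libraries, 28.8, 17.7 and 27.5% in xanthophore-enriched libraries and 28.7, 26.4 and 45.9% in unenriched skin. The log2 ratios were -1.87 ± 0.30 in melanophore-enriched (adjusted p = 0.000674, 7.00% of 3173 genes called lower), -1.44 ± 0.37 in xanthophore-enriched (adjusted p = 0.0228, 6.40% of 2687 genes) and -1.11 ± 0.22 in whole skin (adjusted p = 0.000877, 15.6% of 11695 genes), each ± SE. The xanthophore-enriched call was lost when any 1 replicate was left out, with adjusted p from 0.0844 to 0.111, and that in unenriched skin without replicate 3 (adjusted p = 0.0833) or without precision weights (adjusted p = 0.0592).

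Outside albolineatus, no ratio of fhl2a passed in the melanophore-enriched, xanthophore-enriched or unenriched libraries where it was tested. In aesculapii it was -0.61 ± 0.30 in melanophore-enriched libraries (adjusted p = 0.273, 4.47% of all genes called lower) and -0.69 ± 0.28 in unenriched skin (adjusted p = 0.135, 6.17% called lower). In kyathit it was -0.62 ± 0.47 in melanophore-enriched and -0.96 ± 0.51 in xanthophore-enriched cells and -0.90 ± 0.37 in whole skin, with adjusted p from 0.125 to 0.401, where 8.06, 7.05 and 7.19% of all genes were called lower. In nigrofasciatus it was 0.65 ± 0.40 in melanophore-enriched libraries (6.48% of all genes called higher), and -0.30 ± 0.57 in xanthophore-enriched and -0.15 ± 0.34 in unenriched libraries (15.3 and 10.7% called lower). The nigrofasciatus melanophore-enriched libraries had paternal shares of 85.3, 57.4 and 48.2%, and replicate 3 stood apart from the other libraries of its group.

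The allele ratio of fhl2a among kinds did not pass a test of difference in any hybrid where it could be tested. The F test over the 4 kinds gave adjusted p = 0.402 in albolineatus, 0.661 in kyathit and 0.709 in nigrofasciatus, with 1.89, 1.17 and 0.691% of all genes passing in that order. Iridophore-enriched minus unenriched log2 ratios of fhl2a, a contrast added after the data were seen, were 0.23 ± 0.30 in aesculapii, -0.09 ± 0.25 in albolineatus, 0.75 ± 0.38 in kyathit and 0.43 ± 0.37 in nigrofasciatus, with adjusted p of 0.728 or more. In this contrast 1.47, 3.31, 0.186 and 0.129% of genes passed.

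Outside iridophores fhl2b could be tested in 3 groups only, and none passed. In aesculapii melanophore-enriched libraries the paternal allele had values of 256, 201 and 2 and the D. rerio allele 1242, 529 and 217. The log2 ratio was -2.13 ± 0.63 (SE, adjusted p = 0.0555), on 3.70 to 19 estimated molecules a library, and without precision weights it passed (adjusted p = 0.0221). In albolineatus melanophore-enriched libraries the paternal share was 55.7, 59.2 and 57.1% and the log2 ratio 0.24 ± 0.95 (adjusted p = 0.895, 4.16% of all genes called higher). In nigrofasciatus skin the log2 ratio was 0.03 ± 0.66 (adjusted p = 0.983, 7.07% of all genes called higher). The allele shares of fhl2b in the remaining groups rest on too few molecules for a test.

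Of the other FHL genes, fhl3a and fhl1b rose in iridophore-enriched libraries, by far less than the level differences of fhl2a and fhl2b. In the level contrast, 24.4% of 6260 genes rose and 25.8% fell. The summed value of fhl3a was 460.8 ± 348.5 in iridophore-enriched libraries and 87.3 ± 32.0 in unenriched skin (SD, n = 12 each), a log2 difference of 1.90 ± 0.32 (SE, adjusted p = 3.80e-06, limma). That of fhl1b was 375.3 ± 245.4 and 235.4 ± 276.3 in the same order, a log2 difference of 0.90 ± 0.33 (adjusted p = 0.0238), and its call was lost without any 1 of the replicates. For fhl3b, with 361.3 ± 166.7 in iridophore-enriched libraries and 291.0 ± 98.9 in unenriched skin, the log2 difference of 0.20 ± 0.22 did not pass (adjusted p = 0.486). The level of fhl1a (median 22 in iridophore-enriched libraries and 146.5 in unenriched skin) was under the filter on low values, and fhl5 was not analysed here. That filter took the mean of both kinds, and the skin mean of fhl3a lay under it. The test of fhl3a therefore rested on its iridophore-enriched values.

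The alleles of fhl1b leaned to the father in the iridophore-enriched libraries where it was testable. Its log2 ratio was 3.53 ± 0.41 in albolineatus (adjusted p = 2.42e-05), 1.91 ± 0.55 in kyathit (adjusted p = 0.0217, 11.5% of all genes called higher) and 1.59 ± 0.39 in nigrofasciatus (adjusted p = 0.0119), each ± SE. In kyathit, fhl3b had a lower paternal allele (-1.55 ± 0.41, adjusted p = 0.0163), in the same direction as fhl2b there. In albolineatus skin the paternal allele was higher for fhl1b (1.65 ± 0.32, adjusted p = 0.00115) and for fhl1a (1.61 ± 0.33, adjusted p = 0.00342), in a group with 13.6% of all genes called higher. In kyathit skin the paternal allele of fhl3b was lower too (-2.18 ± 0.44, adjusted p = 0.00794). No other FHL gene passed in aesculapii or nigrofasciatus skin.

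LIM-domain adaptor genes link actin, focal adhesions and signalling proteins. Of 48 listed, 42 were in the tables and 19 were tested in the iridophore contrast, where 5 rose, 7 fell and 7 did not pass, beside 24.4% of all genes that rose and 25.8% that fell, with a median log2 difference of -0.13 against -0.07 over all genes tested. Those that rose most were csrp2, a cysteine-rich LIM protein (2.46 ± 0.29, summed value 1524 ± 843 in iridophore-enriched libraries and 273 ± 199 in unenriched skin), pdlim3a, a PDZ and LIM protein (1.96 ± 0.27), and crip1, a small LIM protein (1.80 ± 0.15). For pdlim3a the summed value was 501.5 ± 935.3 in iridophore-enriched libraries and 13.5 ± 15.2 in unenriched skin (SD). The filter on low values took the mean of both kinds, so pdlim3a was tested only through its iridophore-enriched values. Its call is a description. Those that fell most were ablim1b, an actin-binding LIM gene (-1.39 ± 0.29), pdlim5b (-1.23 ± 0.27) and lmo7a (-1.15 ± 0.34). With replicate 4 left out 3 genes fell, with no filter on low values 16 fell, and without the 2 unenriched libraries 5 rose and 7 fell.

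Of 18 listed LIM-only, LIM homeobox and LIM-domain-binding regulators, 13 were in the tables and 3 were tested, lmo4b and the LIM-domain-binding genes ldb1a and ldb2b. Of these lmo4b, a LIM-only transcriptional co-regulator (2.31 ± 0.22), and ldb2b, a LIM-domain-binding co-regulator (1.73 ± 0.34), rose in iridophore-enriched libraries. The summed value of ldb2b was 465.2 ± 771.3 there and 59.25 ± 29.89 in unenriched skin (SD). It too was tested only through its iridophore-enriched values. Of all 6260 genes tested there, 24.4% rose, and with 3 tested genes the list gives no more than these values. Without replicate 3, 1 of them passed.

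Of 32 listed genes for proteins known as partners of mammalian FHL2, 20 were tested. In iridophore-enriched libraries 2 rose, 6 fell and 12 did not pass, beside the same 24.4% and 25.8% of all genes, with a median of -0.27. Without replicate 5, 1 rose, with no filter on low values 10 fell, and without the 2 unenriched libraries 2 rose and 5 fell. The integrin β genes itgb1b (1.72 ± 0.21, summed value 1148 ± 560 in iridophore-enriched libraries and 306.4 ± 81.9 in unenriched skin) and itgb5 (1.01 ± 0.29) rose. The nuclear receptor gene nr4a1 (-3.84 ± 0.31), the integrin gene itgb1a (-1.76 ± 0.39) and the AP-1 gene fosl2 (-1.70 ± 0.19) fell most. With 60.4 ± 58.1 in iridophore-enriched libraries and 261 ± 219.1 in unenriched skin (SD), itgb1a was tested only through its skin values. In melanophore-enriched libraries 0 of 16 tested partners rose and 7 fell, where 17.7% of 3505 genes rose and 15.0% fell. In xanthophore-enriched libraries 0 of 17 rose and 2 fell, where 7.60% of 3370 genes rose and 4.78% fell. These contrasts share their unenriched libraries.

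Markers of other cells were present in iridophore-enriched libraries to different degrees. Their counts stand beside 24.4% of 6260 genes that rose and 25.8% that fell in this contrast. The filter took the mean of both kinds, so some markers were tested only through the kind where they were high. These counts are a description. All 7 tested of 8 dermal fibroblast and scale markers fell in iridophore-enriched libraries, with sums of 3133 to 103653 there and 104612 to 1321219 in unenriched skin. All 3 tested of 15 skeletal muscle markers fell, with sums of 102 to 820 in iridophore-enriched libraries and 522 to 9562 in unenriched skin. Of 6 tested smooth muscle and mural markers 1 rose and 3 fell, with sums of 730 to 7728 in iridophore-enriched libraries (median 1647.5) and 1184 to 5034 in unenriched skin (median 1766), and the gene that rose was myl9a (2.54 ± 0.23). Of 4 tested melanophore markers 3 rose, mc1r (3.87 ± 0.31), slc45a2 (1.88 ± 0.37) and tyrp1b (1.88 ± 0.70). The melanophore marker sums were 2242 to 17219 in iridophore-enriched libraries and 201 to 14783 in unenriched skin. The mean of mc1r was 2401 ± 1209 (SD) in iridophore-enriched and 1584 ± 1408 in melanophore-enriched libraries, so it did not mark melanophores alone here. Of 9 keratinocyte markers 6 fell, with sums of 35296 to 228604 in iridophore-enriched libraries and 119336 to 271351 in unenriched skin. The 1 cardiac marker in the tables, tnnt2a, summed to 0 to 9 in iridophore-enriched libraries and 0 to 19 in unenriched skin. Of 5 tested glia and neuron markers 2 rose, sncga (2.67 ± 0.35) and tubb5 (1.79 ± 0.22), and 2 fell. Of 6 tested xanthophore markers 1 rose, slc2a15b (1.23 ± 0.37), and 2 fell. All 8 leukocyte and all 5 erythrocyte markers fell. The part of these cells in the adaptor and partner lists was not tested.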

How the data were processed

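PolyA RNA from sorted and whole skin was sequenced from SMART-seq2 and Nextera paired-end libraries, per the labels' protocols. The values deposited by the authors are a score: whole numbers in a table per allele, scaled by a size factor per column, since median-ratio factors computed again for the 96 columns were 0.997 to 1.003 times their median. The submitters' processing notes name GRCz11, featureCounts and DESeq2 1.44.0 without their roles. For the aligner, variants and filters, the sources used here give nothing. Reads shared by the paralogs and mapping that favours an allele can move a ratio, which was not tested.

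The planned count test had no counts to run on, so limma 3.58.1 in R 4.3.3 was used, with figures and permutation tests (100000 resamples) in Python 3.11.15. The permutation tests took no account of the batches. A value per molecule (6.23 to 274.6) was estimated per library from the scatter of allele shares between replicates, over genes with summed values from 300 to 3000. It absorbs real spread between replicates, so no counting interval is given. Allele ratios are log2 ratios of molecules, paternal over D. rerio with 0.5 added to each, centred per library on the median gene, which removed -0.06 to 0.86. Paternal shares are of the scaled values and were not centred. Ratios under 3 molecules and mitochondrially encoded genes were left out, and a gene was tested with 5 molecules in 2 of 3 libraries. The 12 libraries of a hybrid shared a fit. F tests of ratios took genes with at least 10 molecules of each allele, summed over the libraries of the fit, and a rarer allele of 5% or more. Levels are log2 of the summed value plus 20, with a mean per group over 48 libraries, for genes with a mean of 5 molecules. For contrasts with skin, that mean was over the sorted kind and skin together, so a gene could enter through either kind alone. Fits had precision weights (lowess span 0.3) and variances moderated with a trend and robustly. Two-sided p-values were adjusted by Benjamini-Hochberg over all genes of a comparison, with 0.05 as the threshold. They measure the spread between these samples only, as separate fish are not stated.

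The labels call the replicate number a batch, so numbers pair samples. Over 72 pairs of groups in a hybrid, same-numbered deviations correlated at -0.148 to 0.244 (median 0.0692, 29 over 0.1). In simulated data for albolineatus iridophore-enriched libraries, 13.1% of genes changed by a log2 ratio of 1 and 57.6% of those changed by 2 were recovered, over 4672 genes, and 2 of 72 calls were false. The simulation had no batches and gave all genes the same spread of ratios beyond counting. It tested 99 changed genes of each size, while 438 and 574 of 4690 real genes were called higher and lower. Changed genes were drawn over a wide range of levels, so the shares are not specific to fhl2a, with its mean summed value of 42060. In the real libraries the log2 ratio of fhl2b had an SD of 1.32, so these shares may not hold for it.

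The members, lists, tests and alternatives were chosen with earlier results of these data known. Named are all FHL genes in the tables, up to 3 called genes of the adaptor, regulator and partner lists that rose and that fell most, and the 5 genes most like each member, among genes with a mean summed value of 200 or more in iridophore-enriched libraries. Cell markers were named without that rule, and not all marker lists are described. No sequences are shown.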

Additional observations from a re-analysis of the deposited data

Results flagged for a closer look

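Each of these results is a difference between hybrids, in iridophore-enriched libraries, that passed a test of the difference itself. Over all genes, 28.0% of 2722 passed for the allele ratio and 11.8% of 5942 for the level. The allele ratio of fhl2b differed among the 4 hybrids (limma F test, adjusted p = 0.0002025), with a paternal share between 22.6 and 27.7% in kyathit libraries and between 58.6 and 89.1% in albolineatus libraries. The allele ratio of fhl2a differed too (adjusted p = 0.0004439), with a paternal share between 28.3 and 33.0% in albolineatus and between 53.9 and 62.5% in nigrofasciatus. The level of fhl2b differed (adjusted p = 0.0368), with summed values of 642 to 1956 in kyathit against 1914 to 14743 in the other hybrids. The sum over 11 iridophore markers was lowest in the same kyathit libraries too, 126663 to 214287, against 265660 to 749878 in the other hybrids. Its part in the difference in fhl2b level was not tested. That level call held under 6 of 9 alternative settings, and its limma adjusted p was 0.0182 to 0.775 on leaving out a replicate. A difference in level among hybrids also cannot be told apart from a difference between fathers in the number of reads that can be given to an allele. The log2 ratio of fhl2b minus that of fhl2a differed (permutation p = 0.00254), with means of 3.11 ± 1.39 in albolineatus and -1.33 ± 0.18 in kyathit (SD, n = 3 each). That test was added after the values were seen, and its permutation p was 0.0286 to 0.0667 on leaving out a replicate.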

How the results depend on the processing

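Over the tests of fhl2a and fhl2b, 270 alternative values kept their direction and their side of the threshold, 19 lost a call, 5 gained one and 7 turned in direction. Among levels, which were not tested, the fhl2a difference of xanthophore-enriched from unenriched libraries was -0.05 without replicate 5. Without precision weights, calls were lost for fhl2a in aesculapii iridophore-enriched libraries (-0.4445), for fhl2b in kyathit (-1.502) and nigrofasciatus (0.8944) iridophore-enriched libraries and for fhl2a in albolineatus skin (-0.985), while fhl2b in aesculapii melanophore-enriched libraries passed (-2.176), as it did without robust variances (-2.127). With 1 molecule added, fhl2b in aesculapii iridophore-enriched libraries passed (-1.013). With the replicate block, fhl2a in aesculapii (-0.4378) and fhl2b in nigrofasciatus (0.8646) iridophore-enriched libraries lost their calls, and it changed no other call. The ratio of fhl2b in nigrofasciatus skin, which never passed, turned to -0.2873 with the block and to -0.167 without weights. Leaving out replicates gave -0.5664 to -0.3451 and -1.759 to -0.2921 for fhl2a and fhl2b in aesculapii iridophore-enriched libraries, and -0.3237 to 0.06476 for fhl2a in kyathit ones. It gave 0.6821 to 1.06 for fhl2b in nigrofasciatus iridophore-enriched libraries, -0.03637 to 1.395 for fhl2a in melanophore-enriched ones and -0.2782 to 0.05411 for fhl2a in skin, with -0.1749 for fhl2b there. In albolineatus it gave -1.344 to -0.8695 for fhl2a in skin, -1.67 to -1.366 in xanthophore-enriched libraries and -0.39 to 0.2866 for iridophore-enriched minus unenriched. The F of the fhl2b level among hybrids was 1.684 to 7.706 on leaving out replicates and 4.793 with a pseudocount of 5, which lost the call. The balance of the paralogs passed with the paternal allele alone (F = 7.052, permutation p = 0.0171), and the F of their ratio difference was 4.341 to 11.88 on leaving out replicates. Leaving out a replicate brought the genes with an iridophore allele ratio that differed among hybrids to between 235 and 571, against 761, and those whose level differed to between 82 and 570, against 700. With the block, genes whose ratio differed among kinds numbered 7 against 19 in aesculapii, 22 against 39 in albolineatus, 11 against 31 in kyathit and 0 against 13 in nigrofasciatus. Of the 5 genes most like fhl2a, 3 were shared with the ranking by group means and 4 with that by Spearman's rho, and 3 and 5 for fhl2b. Causes of these shifts were not tested. Few molecules limit fhl2b outside iridophore-enriched libraries.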
